A study of Homo sapiens with 16 samples.

Results

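NRF2 pathway genes were followed through 16 RNA sequencing libraries of 2 established human lung cancer lines (non-small cell), A549 and H2023. The set was a list of 39 genes: the transcription factor NRF2 (gene NFE2L2), its inhibitor KEAP1, its DNA-binding partner MAFG, and 36 genes widely described as NRF2 targets. Members were matched by gene symbol with no filter on their values, but the list was chosen with earlier results of these data known. All 39 were found among the 18227 genes of the deposited tables, and all 39 had a mean of at least 1 TPM (a transcript level scaled by transcript length and library size), as did 14823 of the 18227 genes.

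The study compared wild-type cells with cells labelled ZC3H12A knockout in both lines. ZC3H12A encodes Regnase-1, an RNase known for degrading mRNAs of inflammation. Normal culture lasted 3 days and the stem-cell-enriched culture, labelled oncosphere, lasted 7 days, so the kind of culture and its length changed together. The 8 groups were therefore A549 wild type, A549 labelled knockout, H2023 wild type and H2023 labelled knockout, each in normal and in oncosphere culture, with 2 libraries a group. The libraries labelled knockout came from 1 clone per line, so the edit and any other trait of that clone cannot be told apart in a difference from wild type. Nothing in the labels says that the replicates were separate cultures, and p-values then measure the spread between these libraries, which may be technical.

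NRF2 is a leucine zipper factor that pairs with small MAF proteins on antioxidant response elements and raises the transcription of genes for glutathione and thioredoxin metabolism, NADPH supply, haem and iron handling and xenobiotic removal. KEAP1 holds NRF2 in the cytoplasm and presents it to a CUL3 ubiquitin ligase for degradation, and electrophiles or oxidants relieve that hold. Loss of KEAP1 function is frequent in lung adenocarcinoma and keeps NRF2 targets high without an outside stress. A549 is known to carry a KEAP1 mutation. The KEAP1 status of H2023 is not given in the sources used here, so a comparison of the lines is a comparison of 2 lines, not of mutant with intact KEAP1.

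Antioxidant response elements share the core TGACNNNGC, where N is any base. It was searched on both strands of RefSeq promoter sequences (GRCh38.p14; 300 bases each, 250 before and 50 after a start). The core was present in 11 of 38 promoters of members (28.9%) and in 13.3% of all 35116 promoters of the same length. Counted by gene, 10 of the 29 members with a promoter sequence held it (34.5%), against 19.1% of the 12316 genes of the deposited tables that have one. GSR, CBR3, HMOX1, ABCC1, SLC7A11, AKR1B10, FTH1, PRDX1, ABCC3 and TRIM16L had no matched promoter sequence. A match describes the letters in the window and does not show a site in use. The following stretches are some of those that hold the core, from members that differed between lines, cultures or genotypes as described below. ME1 and KEAP1 passed the threshold in no comparison of knockout label with wild type. Whether the core goes with any of these differences was not tested. Each stretch is written 5′ to 3′ on the strand of its gene, with the core, read on either strand, in capitals. The ME1 core overlaps the AP-1 motif TGACTCA. The windows of ME1, TXNRD1, EPHX1 and CYP4F11 lie outside annotated exons (that of EPHX1 lies inside the span of the gene, before another of its starts). Those of GCLM, IDH1 and KEAP1 are kept short because exons of longer transcripts reach into the region. Even so, all 29 bases shown for KEAP1 and 11 of the 29 for GCLM lie in annotated exons, and 0 for IDH1. The KEAP1 promoter holds another core outside the stretch shown.
ME1, chr6:83431130-83431238, minus strand: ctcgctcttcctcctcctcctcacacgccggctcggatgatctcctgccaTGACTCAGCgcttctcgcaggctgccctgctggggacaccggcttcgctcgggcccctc
TXNRD1, chr12:104215630-104215738, plus strand: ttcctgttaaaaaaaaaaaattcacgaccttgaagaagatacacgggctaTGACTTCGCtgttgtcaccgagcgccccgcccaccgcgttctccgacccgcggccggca
EPHX1, chr1:225825226-225825334, plus strand: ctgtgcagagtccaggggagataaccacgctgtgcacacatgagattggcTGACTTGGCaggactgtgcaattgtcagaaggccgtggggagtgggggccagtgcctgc
CYP4F11, chr19:15934965-15935073, minus strand: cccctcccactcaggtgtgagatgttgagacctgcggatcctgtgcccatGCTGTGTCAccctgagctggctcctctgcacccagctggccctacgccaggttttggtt
GCLM, chr1:93909446-93909474, minus strand: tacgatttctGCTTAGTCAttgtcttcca
IDH1, chr2:208255196-208255224, minus strand: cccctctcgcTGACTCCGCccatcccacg
KEAP1, chr19:10502784-10502812, minus strand: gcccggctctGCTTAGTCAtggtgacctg

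The libraries were alike in breadth, with 13824 to 14508 genes at 1 TPM or more, and the correlation of replicate libraries over genes was 0.983 to 0.992. The sequencing depth is unknown, since TPM does not hold it. The mitochondrial share of TPM was 10.3% to 18.7% in normal and 19.5% to 25.6% in oncosphere culture. ZC3H12A mRNA was lower under the knockout label in A549 normal culture, and its values were higher in 3 of the 4 comparisons. In A549 normal culture wild type had 30.7 and 34.9 TPM and knockout-labelled libraries 16.9 and 19.9 TPM (limma adjusted p = 0.00387). Wild type stood at 48.5 and 49.2 against 60.2 and 55.6 TPM in A549 oncosphere culture (limma adjusted p = 0.304). It stood at 26.8 and 29.9 against 41.5 and 41.5 TPM in H2023 normal culture (limma adjusted p = 0.0835). In H2023 oncosphere culture it stood at 32.5 and 26.4 against 94.6 and 69.2 TPM (limma adjusted p = 0.00045). Of these rises, only that in H2023 oncosphere culture passed the threshold used below. Whether the protein was lost is not measured by these data, and every direction below is between libraries as labelled. Of 9 epithelial markers 7 were in the tables and summed to 2574 to 13034 TPM, lowest in the A549 normal libraries labelled knockout (5013 and 2574 TPM, against 9348 and 9176 TPM in wild type). EPCAM ranged from 0.37 to 51.0 TPM. Fibroblast markers (3 of 6 in the tables) summed to 1.34 to 10.1 TPM, the endothelial marker PECAM1 reached at most 2.76 TPM, and leukocyte markers (3 of 5) summed to 31.4 to 245.1 TPM, mostly from CD68, with the highest sums in A549 oncosphere wild type (245.1 and 151.1 TPM). The part these markers play in the results was not tested. In such bulk libraries, fewer cells with a transcript and less of it per cell cannot be told apart.

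NRF2 targets made up a sizeable share of the mRNA. The 39 genes held 3.16% to 4.74% of TPM in the A549 libraries and 5.78% to 7.37% in the H2023 libraries, and the ranges did not overlap. Much of this gap lay in 1 gene, FTL, at 5623 to 15668 TPM in A549 and 23494 to 33097 TPM in H2023 libraries. In normal wild type the summed members had means of 44971 TPM in A549 and 70641 TPM in H2023, and FTL alone 11120 and 27909 TPM. The separation of the shares is therefore not shown for the set without FTL. The ferritin light and heavy chains FTL and FTH1, which store iron, led with up to 33097 and 14298 TPM in a library. AKR1C2, a hydroxysteroid and carbonyl reductase, followed with 1404 to 8487 TPM.

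**Figure D1:**
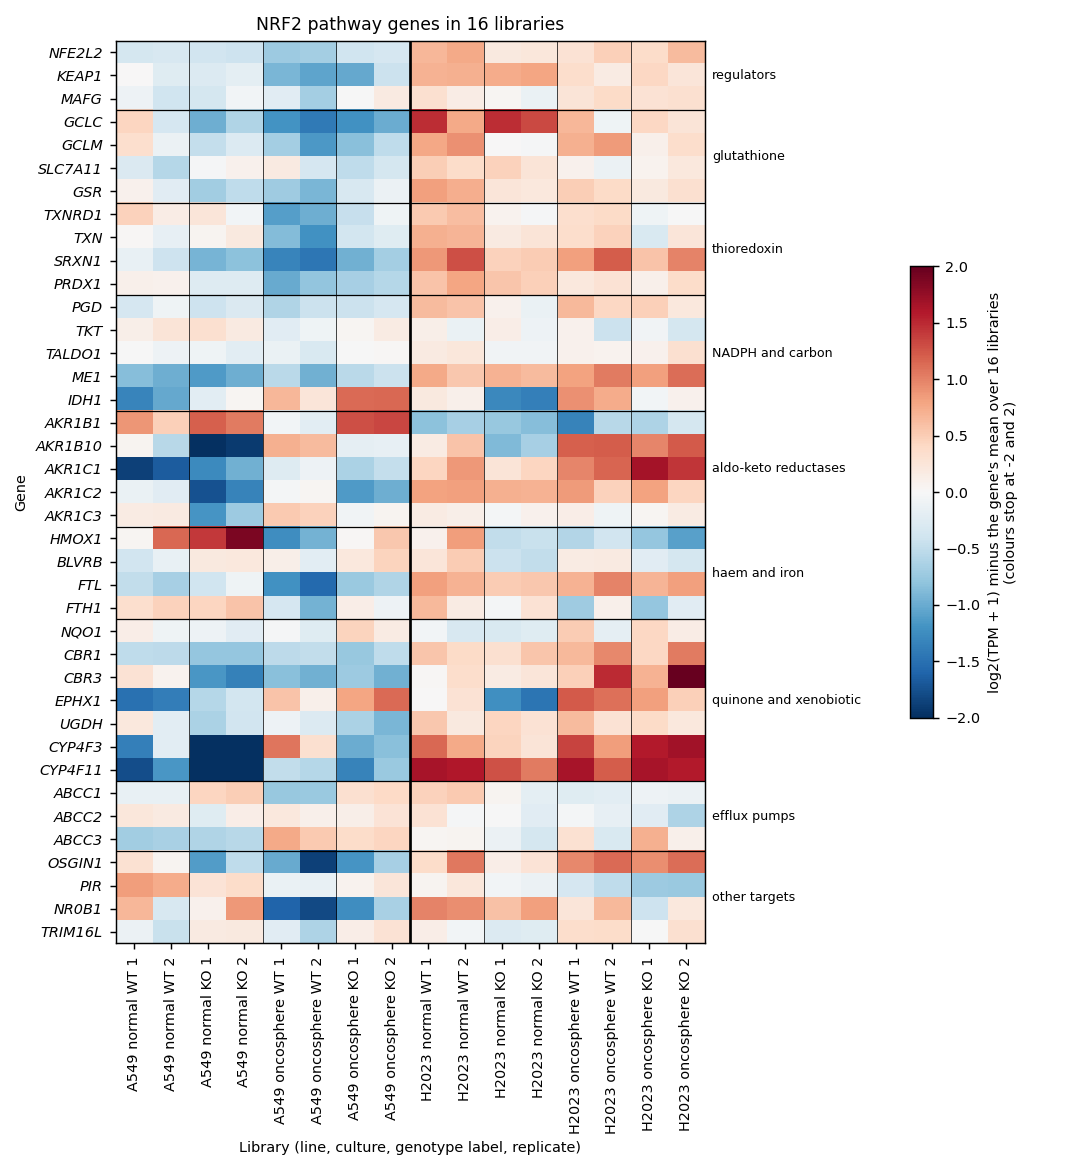
Each row is a gene and each column a library; colour is log2(TPM + 1) minus the gene's mean over the 16 libraries, with colours stopping at -2 and 2. Rows are grouped by role. H2023 libraries, right of the thick line, are mostly above the mean for the regulator, glutathione and thioredoxin genes, and A549 oncosphere wild-type libraries are mostly below it.

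The baseline of the lines was compared first, in wild-type cells. H2023 had higher levels than A549 of most members, including NFE2L2 and KEAP1 themselves. In normal culture 26 of 39 members differed (limma on log2(TPM + 1), adjusted p under 0.05 over all 18227 genes, here termed called), 24 of them higher in H2023 and 2 lower. Among all genes 41.5% were called, 26.6% as higher in H2023 and 14.9% as lower. In oncosphere culture 30 members were called, 26 higher and 4 lower, against 47.8% of all genes (23.4% higher, 24.4% lower). The 4 lower calls changed with the libraries and settings used: 0 members were called lower in the fit of only the groups compared (24 higher) and without A549 wild-type replicate 1, 1 without H2023 wild-type replicate 2, and 2 without A549 wild-type replicate 2 or without mitochondrial genes. The median log2 difference of the members was 0.72 in normal and 0.78 in oncosphere culture, beside 0.12 and -0.01 over all genes. Over the 14823 genes with a mean of at least 1 TPM, to which all members belong, the called shares were 46.4% and 52.3%. In normal culture the median expressed gene also stood 0.16 higher in H2023, and the count was 22 (20 higher, 2 lower) once libraries were scaled to equal medians.

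All 3 regulators were higher in H2023 in both cultures. NFE2L2 (chr2:177227595-177392697, minus strand, GRCh38) was at 54.4 and 55.6 TPM in A549 and at 110.7 and 117.9 TPM in H2023 in normal culture, a log2 difference of 1.04 ± 0.10 (standard error, n = 2 libraries a group throughout; limma adjusted p = 1.03e-05). In oncosphere culture it was at 41.5 and 43.2 TPM in A549 and at 85.7 and 97.7 TPM in H2023. The 2 lines did not overlap in either culture. KEAP1 (chr19:10486120-10503741, minus strand), the inhibitor, was at 62.0 and 51.7 TPM in A549 and at 100.7 and 101.3 TPM in H2023 in normal culture, a log2 difference of 0.82 ± 0.16 (limma adjusted p = 0.00175). In oncosphere culture KEAP1 was at 32.4 and 29.0 TPM in A549 and 78.8 and 68.9 TPM in H2023, with a log2 difference of 1.24. MAFG, the small MAF partner, gave 0.48 in normal and 0.78 in oncosphere culture. The MAFG call in normal culture was lost with equal medians, under the replicate block, in the fit of only the groups compared and in 3 of the 16 fits that left out a library (limma adjusted p up to 0.214).

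Genes of glutathione supply followed the same order. GCLC and GCLM, the catalytic and modifier subunits of the enzyme that starts glutathione synthesis, were higher in H2023 by 1.06 and 0.74 on the log2 scale in normal culture and by 1.59 and 1.68 in oncosphere culture. GCLM rested on 53.6 and 38.4 TPM in A549 oncosphere and 141.0 and 155.5 TPM in H2023 oncosphere wild type. GCLC replicates were wider apart: 204.3 and 119.7 TPM in A549 normal and 422.1 and 254.1 TPM in H2023 normal culture. SLC7A11, the cystine importer, was called in normal culture (0.85) and not in oncosphere culture (0.06). GSR, which regenerates reduced glutathione, was higher by 0.85 and 1.25.

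Of the 4 thioredoxin genes 3 were called in normal culture and all 4 in oncosphere culture, each higher in H2023. SRXN1, which repairs over-oxidised peroxiredoxins, was at 109.7 and 101.4 TPM in A549 and at 488.5 and 642.2 TPM in H2023 there, a log2 difference of 2.40 ± 0.18 (limma adjusted p = 1.39e-06), against 1.36 in normal culture. TXNRD1, the thioredoxin reductase, was not called in normal culture (874.5 and 702.0 TPM in A549, 912.0 and 973.4 TPM in H2023) and differed by 1.40 in oncosphere culture (294.6 and 320.6 against 800.6 and 828.1 TPM). The A549 libraries lay below the H2023 libraries in both cultures, and whether the gap itself differed between cultures is tested below as an interaction, which called TXNRD1 and SRXN1 but neither TXN nor PRDX1. TXN was higher in H2023 by 0.77 and 1.44, and PRDX1, a peroxiredoxin, by 0.58 and 1.14, though the call of PRDX1 in normal culture was lost with equal medians.

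In normal culture the largest line difference among the members was that of CYP4F11, while in oncosphere culture it was that of OSGIN1. CYP4F11, a fatty acid hydroxylase, was at 7.90 and 12.7 TPM in A549 and at 94.7 and 91.7 TPM in H2023 in normal culture, a log2 difference of 3.09 ± 0.22 (limma adjusted p = 1.19e-06). Its relative CYP4F3 differed by 1.75 in normal culture and was not called in oncosphere culture. EPHX1, the microsomal epoxide hydrolase, was higher by 1.59 and 0.83, and the carbonyl reductase CBR1 by 0.99 and 1.31. CBR3, UGDH, OSGIN1, NR0B1 and TRIM16L were called in oncosphere and not in normal culture (log2 1.88, 0.64, 2.49, 2.15 and 0.78). Transcripts of TRIM16L and TRIM16 are 98.7% identical over 1822 aligned bases, so every TRIM16L level is uncertain in the same way as those of near copies among the aldo-keto reductases described below. OSGIN1, an oxidative stress response gene, was at 24.2 and 12.9 TPM in A549 against 98.2 and 110.5 TPM in H2023 oncosphere cells. FTL stood at 11738 and 10503 TPM in A549 and at 29119 and 26700 TPM in H2023 in normal culture, while FTH1 was called in neither culture. Among aldo-keto reductases AKR1C1 was higher in H2023 by 2.41 and 1.25, AKR1C2 by 0.99 and 0.66, and AKR1B10 by 0.62 in normal culture. BLVRB was higher by 0.64 in normal culture, and the pump ABCC1 by 0.64 and 0.52. The NADPH-producing enzymes ME1, IDH1 and PGD were higher by 1.57, 1.33 and 0.80 in normal culture and by 1.68, 0.37 and 1.05 in oncosphere culture, and TALDO1 by 0.30 in oncosphere culture. The IDH1 call in oncosphere culture was a narrow one: it held in 3 of the 16 fits that left out a library, and was lost with a pseudocount of 0.1, with robust variance and in the fit of only the groups compared.

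Some members were lower in H2023 or did not differ detectably. AKR1B1, an aldose reductase, was at 3382 and 2542 TPM in A549 and at 1028 and 1157 TPM in H2023 in normal culture, a log2 difference of -1.43 ± 0.22 (limma adjusted p = 0.000323), and gave -0.80 in oncosphere culture. PIR, an iron-binding nuclear protein, gave -0.65 and -0.28. ABCC3, an efflux pump, was higher in H2023 in normal culture (0.72) and lower in oncosphere culture (-0.65). AKR1C3 was lower in oncosphere culture (-0.47). The lower calls of AKR1B1, PIR, ABCC3 and AKR1C3 in oncosphere culture were all lost in the fit of only the groups compared and without A549 wild-type replicate 1, and those of PIR and AKR1C3 also without mitochondrial genes. NQO1, the quinone reductase often used as the marker of NRF2 activity, was at 2238 and 1926 TPM in A549 and 1975 and 1634 TPM in H2023 in normal culture, and at 2017 and 1730 against 2915 and 1809 TPM in oncosphere culture. The NQO1 ranges overlapped in both cultures, with log2 differences of -0.21 ± 0.21 and 0.30 ± 0.21 (limma adjusted p = 0.462 and 0.271). HMOX1, which degrades haem, was not called either (-0.13 and 0.61), nor were TKT and ABCC2.

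**Figure D2:**
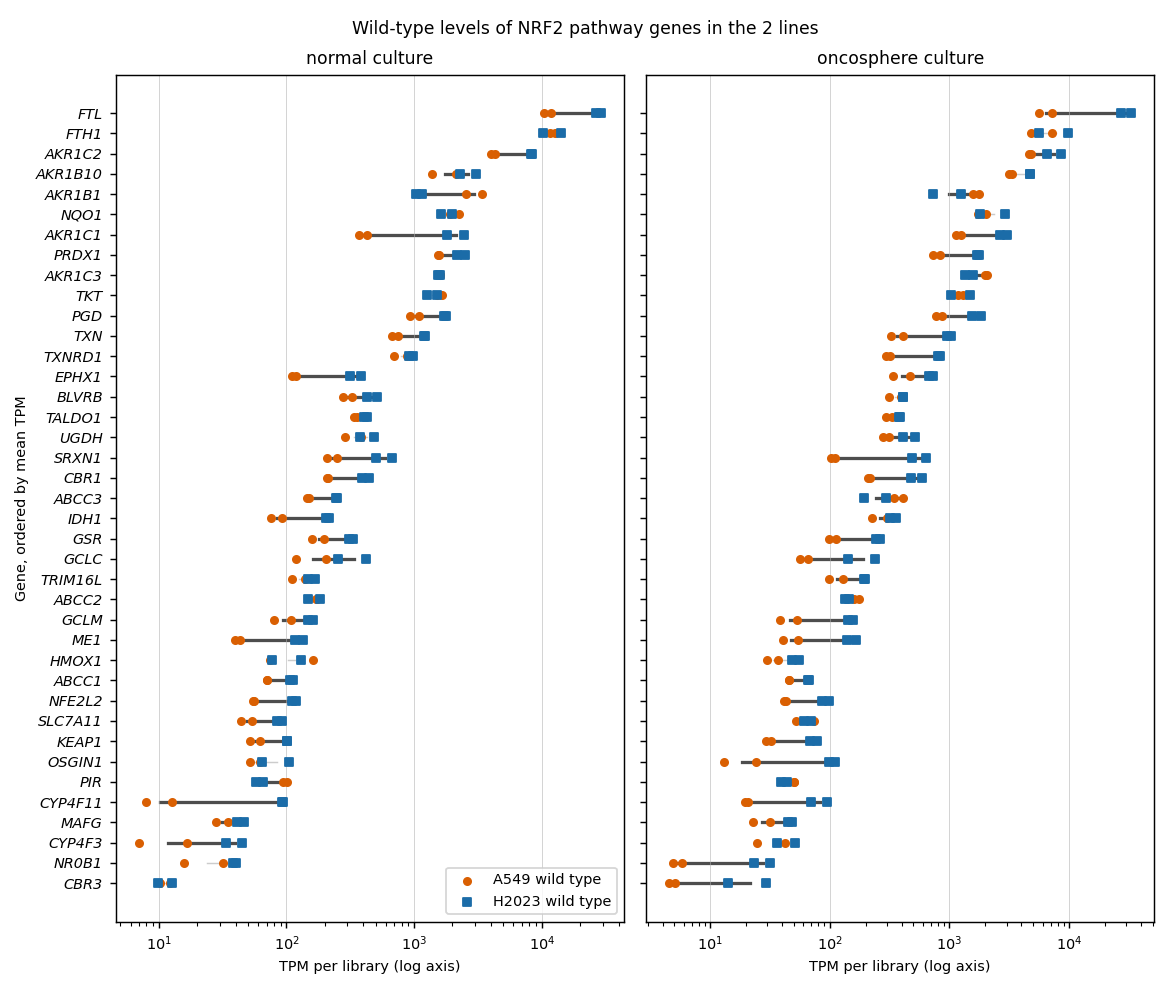
TPM per wild-type library on a log axis for A549 (circles) and H2023 (squares), in normal and oncosphere culture; the line joins the group means and is dark and thick where the limma adjusted p was under 0.05. Most squares lie right of the circles, AKR1B1 and PIR lie left, and NQO1 overlaps.

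The next comparison asked how the members differed between cultures in wild-type cells. In A549 most called members fell in oncosphere culture, among them the regulators NFE2L2 and KEAP1 and all 4 thioredoxin genes, while EPHX1, IDH1, AKR1C1 and CYP4F3 rose. Called members numbered 25, 7 higher and 18 lower, against 41.5% of all genes (19.1% higher, 22.4% lower). The members' median was -0.30 and that of all genes -0.01. In H2023 7 members were called, 3 higher and 4 lower, against 27.4% of all genes (5.17% higher, 22.2% lower). These comparisons use the same wild-type libraries as the comparison of the lines, so their values are not independent of it.

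The falls in A549 covered several roles. TXNRD1 went from 874.5 and 702.0 TPM in normal to 294.6 and 320.6 TPM in oncosphere culture, a log2 difference of -1.35 ± 0.15 (limma adjusted p = 2.27e-05). The glutathione genes GCLC, GCLM and GSR gave -1.36, -1.02 and -0.75, and SRXN1, PRDX1 and TXN gave -1.10, -0.99 and -0.97. HMOX1 had 74.2 and 160.7 TPM in normal and 30.0 and 37.2 TPM in oncosphere culture (-1.68 ± 0.33, limma adjusted p = 0.00152). NR0B1, a nuclear receptor corepressor, gave -1.88, OSGIN1 -1.62, CBR3 -1.07, FTH1 -1.04, PIR -0.94, AKR1B1 -0.82, FTL -0.81 and ABCC1 -0.61. KEAP1 gave -0.87 and NFE2L2 -0.37. The CBR3 call held in 4 of the 16 fits that left out a library and was lost with equal medians and without mitochondrial genes. For these genes the 2 normal and the 2 oncosphere wild-type libraries of A549 did not overlap. The calls rest on the same libraries, so the lack of overlap is no separate support.

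Rises in A549 reached similar sizes. EPHX1 went from 110.4 and 119.1 TPM to 466.9 and 334.6 TPM, a log2 difference of 1.78 ± 0.18 (limma adjusted p = 1.31e-05). IDH1, the cytosolic NADP-dependent isocitrate dehydrogenase, had 75.3 and 92.0 TPM in normal and 299.4 and 224.2 TPM in oncosphere culture (1.63 ± 0.14, limma adjusted p = 4.12e-06). AKR1C1 gave 1.58, CYP4F3 1.49, ABCC3 1.32, CYP4F11 0.94 and AKR1B10, a retinal and aldehyde reductase, 0.93. SLC7A11, NQO1 and MAFG were not called (0.35, -0.15 and -0.21).

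In H2023 the same 3 genes EPHX1, AKR1B10 and IDH1 were higher in oncosphere culture (1.02, 0.83 and 0.67), and ABCC1, PIR, PRDX1 and NFE2L2 were lower (-0.72, -0.56, -0.43 and -0.32). The direction of the count depends on the scale here, because the median expressed gene itself stood at -0.24 between the cultures. With libraries scaled to equal medians 9 members were called, 7 higher and 2 lower, and without mitochondrial genes 8, 7 higher and 1 lower, and NFE2L2 and PRDX1 were then no longer called. TXNRD1, GCLM and SRXN1 were not called in H2023 (-0.21, -0.07 and -0.06).

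The difference between the lines in their response to culture was tested as an interaction, chosen after the data were seen. It was called for 10 members, 5 higher and 5 lower, against 14.1% of all genes (3.79% higher, 10.3% lower). The value, the culture difference of H2023 minus that of A549, was 1.96 for OSGIN1, 1.87 for CBR3, 1.14 for TXNRD1, 1.04 for SRXN1 and 0.95 for GCLM. It was -0.79 for SLC7A11, -0.95 for IDH1, -1.13 for CYP4F11, -1.16 for AKR1C1 and -1.37 for ABCC3. TXNRD1, IDH1, AKR1C1, ABCC3 and OSGIN1 were called in each of the 16 fits that left out a library, and CBR3 in 3 of them. The median expressed gene stood at -0.15 in this contrast, and with equal medians 13 members were called, 10 higher and 3 lower (without mitochondrial genes 7 higher and 3 lower).

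**Figure D3:**
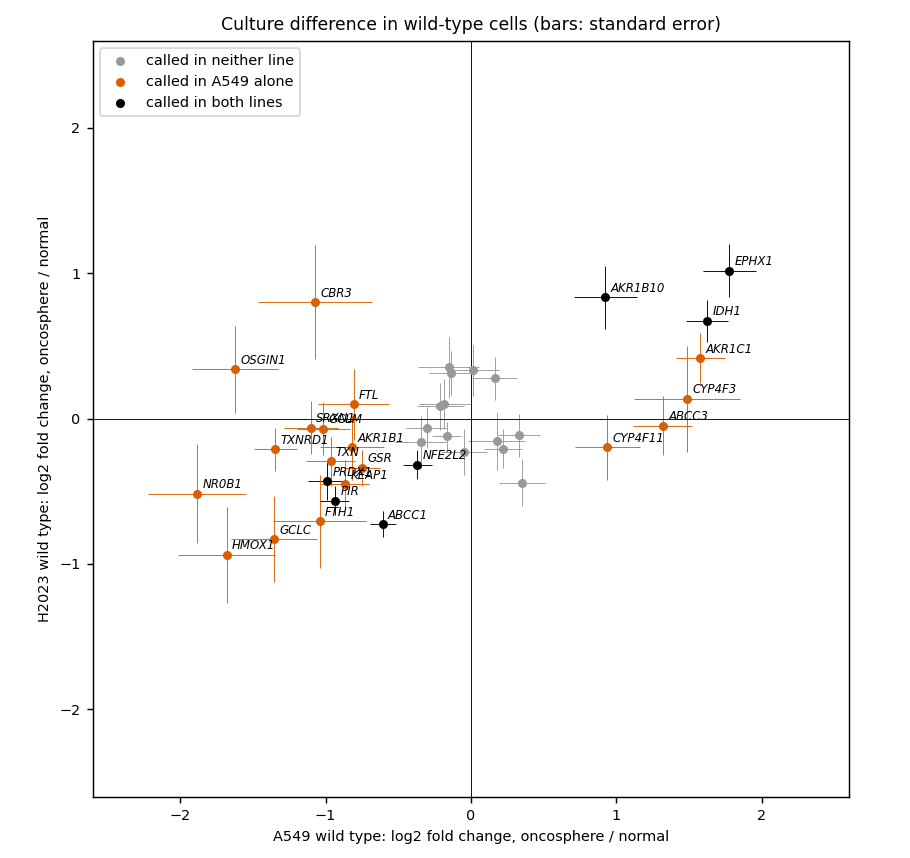
Log2 difference between oncosphere and normal culture in A549 wild type (horizontal) and H2023 wild type (vertical) for each of the 39 genes, with standard errors; black points were called in both lines, orange in A549 alone, grey in neither. EPHX1, IDH1 and AKR1B10 lie at the upper right, and TXNRD1, SRXN1, GCLM and OSGIN1 lie left of 0 in A549 and near or above 0 in H2023.

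Libraries labelled knockout were then compared with wild type in A549 normal culture. Of 5 aldo-keto reductases AKR1B10, AKR1C2 and AKR1C3 were lower, AKR1C1 was higher and AKR1B1 was not called. CYP4F3 and CYP4F11 were lower, and IDH1, EPHX1, HMOX1 and ABCC1 were higher. Of the 39 members 17 were called, 7 higher and 10 lower, against 17.7% of all genes (7.32% higher, 10.4% lower). Over the genes with a mean of at least 1 TPM the called share was 19.8%, and it was 21.9%, 3.36% and 6.27% in the 3 comparisons that follow. The members' median was -0.14 beside -0.03 over all genes, and 16 of the 39 had a positive value. The regulators were not called: NFE2L2 gave -0.06, KEAP1 -0.12 and MAFG 0.04.

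AKR1B10 was the aldo-keto reductase with the largest difference, at 2114 and 1390 TPM in wild type, falling to 391.8 and 538.5 TPM in knockout-labelled cells, a log2 difference of -1.90 ± 0.22 (limma adjusted p = 0.000144). AKR1C2 went from 4299 and 4032 to 1404 and 1877 TPM (-1.36 ± 0.20, limma adjusted p = 0.000788). AKR1C3, which reduces steroids and prostaglandins, went from 1590 and 1608 to 631.4 and 861.3 TPM (-1.12). AKR1C1 was higher (0.64), at 370.6 and 427.0 against 555.4 and 689.2 TPM. AKR1C1 and AKR1C2 transcripts are 97.6% identical over 3750 aligned bases, so reads could be split between them in the authors' quantification and their separate levels are uncertain. The sum of AKR1C1, AKR1C2 and AKR1C3 is touched by that split too, since TPM divides by transcript length and the transcripts compared have 6705, 3756 and 1807 bases. The sum was 6259 and 6066 TPM in wild type, next to 2591 and 3428 TPM in knockout-labelled cells, and the groups did not overlap. The 3 genes lie side by side on chromosome 10, from 4963253 to 5107686.

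CYP4F3 and CYP4F11 were low in A549 and lower still under the knockout label: 6.95 and 16.8 against 0.93 and 2.33 TPM for CYP4F3 (-2.23 ± 0.36, limma adjusted p = 0.00162), and 7.90 and 12.7 against 3.08 and 3.77 TPM for CYP4F11 (-1.32 ± 0.22, limma adjusted p = 0.00196). These 2 transcripts are 87.4% identical over the part that aligns. CBR3, OSGIN1, SRXN1, GSR and PIR were also lower (-1.43, -0.99, -0.59, -0.53 and -0.47). OSGIN1 went from 61.8 and 51.9 to 22.6 and 34.7 TPM.

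Besides AKR1C1, the higher members in A549 normal culture were IDH1, EPHX1, ABCC1, HMOX1, BLVRB and TRIM16L. IDH1 went from 75.3 and 92.0 to 163.7 and 193.1 TPM (1.09 ± 0.14, limma adjusted p = 0.000396), and EPHX1 from 110.4 and 119.1 to 210.6 and 241.5 TPM (0.97 ± 0.18, limma adjusted p = 0.00382). ABCC1, a pump for glutathione conjugates, was at 70.0 and 70.4 TPM in wild type and 105.9 and 109.5 TPM under the knockout label (0.61 ± 0.09, limma adjusted p = 0.000846). HMOX1 was at 74.2 and 160.7 against 194.2 and 270.0 TPM (1.06 ± 0.33, limma adjusted p = 0.0447). The HMOX1 wild-type libraries were 1 high and 1 low, and the call was lost in 11 of the 16 fits that left out a library and in the authors' deposited table. BLVRB, which reduces biliverdin, and TRIM16L gave 0.47 each. Both calls were lost under the replicate block and in the fit of only the groups compared, and the TRIM16L call held in 4 of the 16 fits that left out a library. The glutathione genes GCLC (204.3 and 119.7 against 76.1 and 98.7 TPM; -0.84, limma adjusted p = 0.0692), GCLM (-0.48) and SLC7A11 (0.46) missed the threshold, as did TXNRD1 (-0.21) and NQO1 (-0.18).

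In this comparison 8 of the 17 calls held in every fit that left out a library and under every other alternative: AKR1B10, AKR1C2, AKR1C3, CYP4F3, CYP4F11, IDH1, EPHX1 and ABCC1. The count fell to 8 without wild-type replicate 1, to 9 without knockout replicate 1 and to 11 without knockout replicate 2 of A549 normal culture. In the table deposited by the authors, 22 of 39 members had an adjusted p under 0.05, 9 higher and 13 lower, against 22.1% of the genes it tested (11.2% higher, 10.9% lower).

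In A549 oncosphere culture the balance was the other way. In the libraries labelled knockout 3 of 4 thioredoxin genes and 2 of 3 regulators were higher, as were ABCC1, AKR1B1 and HMOX1, while the aldo-keto reductases AKR1B10, AKR1C2 and AKR1C3 were again lower. The count was 17, 12 higher and 5 lower, against 20.7% of all genes (10.2% higher, 10.5% lower). The members' median was 0.28 beside 0.03 over all genes, and 29 of the 39 had a positive value. The wild-type oncosphere libraries used here also enter the comparison of cultures, so a low value in them counts in both.

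Regulators differed by 0.54 or less. NFE2L2 was at 41.5 and 43.2 TPM in wild type and 52.7 and 55.2 TPM under the knockout label, a log2 difference of 0.34 ± 0.10 (limma adjusted p = 0.0302), and MAFG gave 0.54 (limma adjusted p = 0.0352). Both calls were lost in the fit of the 4 libraries alone and in the authors' deposited table. KEAP1 was at 32.4 and 29.0 against 29.7 and 45.4 TPM, with overlapping groups (0.25, not called).

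TXNRD1 was at 294.6 and 320.6 TPM in wild type and 461.1 and 597.5 TPM under the knockout label, a log2 difference of 0.77 ± 0.15 (limma adjusted p = 0.00293). TXN, SRXN1 and GSR gave 0.73, 0.57 and 0.60. ABCC1 was at 45.5 and 46.0 against 97.8 and 103.0 TPM, the smallest adjusted p among the members (1.12 ± 0.09, limma adjusted p = 6.4e-06). AKR1B1 was at 1753 and 1574 against 4440 and 4595 TPM (1.44 ± 0.22, limma adjusted p = 0.000659). HMOX1 was at 30.0 and 37.2 against 73.5 and 105.2 TPM (1.37 ± 0.33, limma adjusted p = 0.0112). IDH1, EPHX1 and TRIM16L gave 0.68, 0.62 and 0.63. For these genes the groups did not overlap, though the wild-type libraries of EPHX1 (466.9 and 334.6 TPM) and IDH1 (299.4 and 224.2 TPM) were far apart. Since the genes were picked by calls on the same libraries, this adds nothing to the calls.

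The lower members were CYP4F3 (42.1 and 24.7 against 9.37 and 10.5 TPM; -1.61), AKR1C2 (-1.05), AKR1B10 (3357 and 3159 against 1804 and 1830 TPM; -0.84), UGDH, which makes UDP-glucuronate (-0.59), and AKR1C3 (-0.50). The summed AKR1C1, AKR1C2 and AKR1C3 level was 7770 and 8049 TPM in wild type and 4373 and 4864 TPM under the knockout label. GCLC, GCLM, SLC7A11 and NQO1 were not called (0.20, 0.23, -0.35 and 0.44). TXNRD1, AKR1B1, AKR1C2 and ABCC1 were the 4 calls that held under every alternative. The count fell to 11 without wild-type replicate 1, to 8 without wild-type replicate 2 and to 6 without knockout replicate 2. The authors' deposited table called 20 members, 13 higher and 7 lower, against 20.7% of the genes it tested (9.29% higher, 11.4% lower).

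Whether the knockout-label difference in A549 changed with culture was tested as an interaction. It was called for 9 members, 7 higher and 2 lower, against 9.71% of all genes (5.61% higher, 4.1% lower). The difference in oncosphere minus that in normal culture was 1.51 for OSGIN1, 1.16 for SRXN1, 1.14 for GSR, 1.06 for AKR1B10, 0.98 for TXNRD1, 0.77 for PIR and 0.51 for ABCC1. It was -0.81 for SLC7A11 and -1.01 for AKR1C1. GSR crossed over: 198.6 and 159.6 against 115.6 and 130.6 TPM in normal culture, then 113.5 and 98.4 against 149.9 and 173.2 TPM in oncosphere culture (limma adjusted p = 0.00322 for the interaction). Neither the lower GSR call in normal nor the higher one in oncosphere culture held in every fit that left out a library. SRXN1 gave -0.59 in normal and 0.57 in oncosphere culture, but these calls held in 8 and 6 of the 16 fits that left out a library, and both were lost without mitochondrial genes. The count fell to 2 without wild-type replicate 1 of normal culture or without knockout replicate 2 of oncosphere culture, to 4 without knockout replicate 1 of normal culture, and to 5 without either wild-type library of oncosphere culture, and 2 of the 9 calls held in every fit that left out a library. SLC7A11 was called in 3 of those 16 fits, AKR1B10 in 4 and OSGIN1 in 7. Without mitochondrial genes the split was 4 higher and 2 lower.

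**Figure D4:**
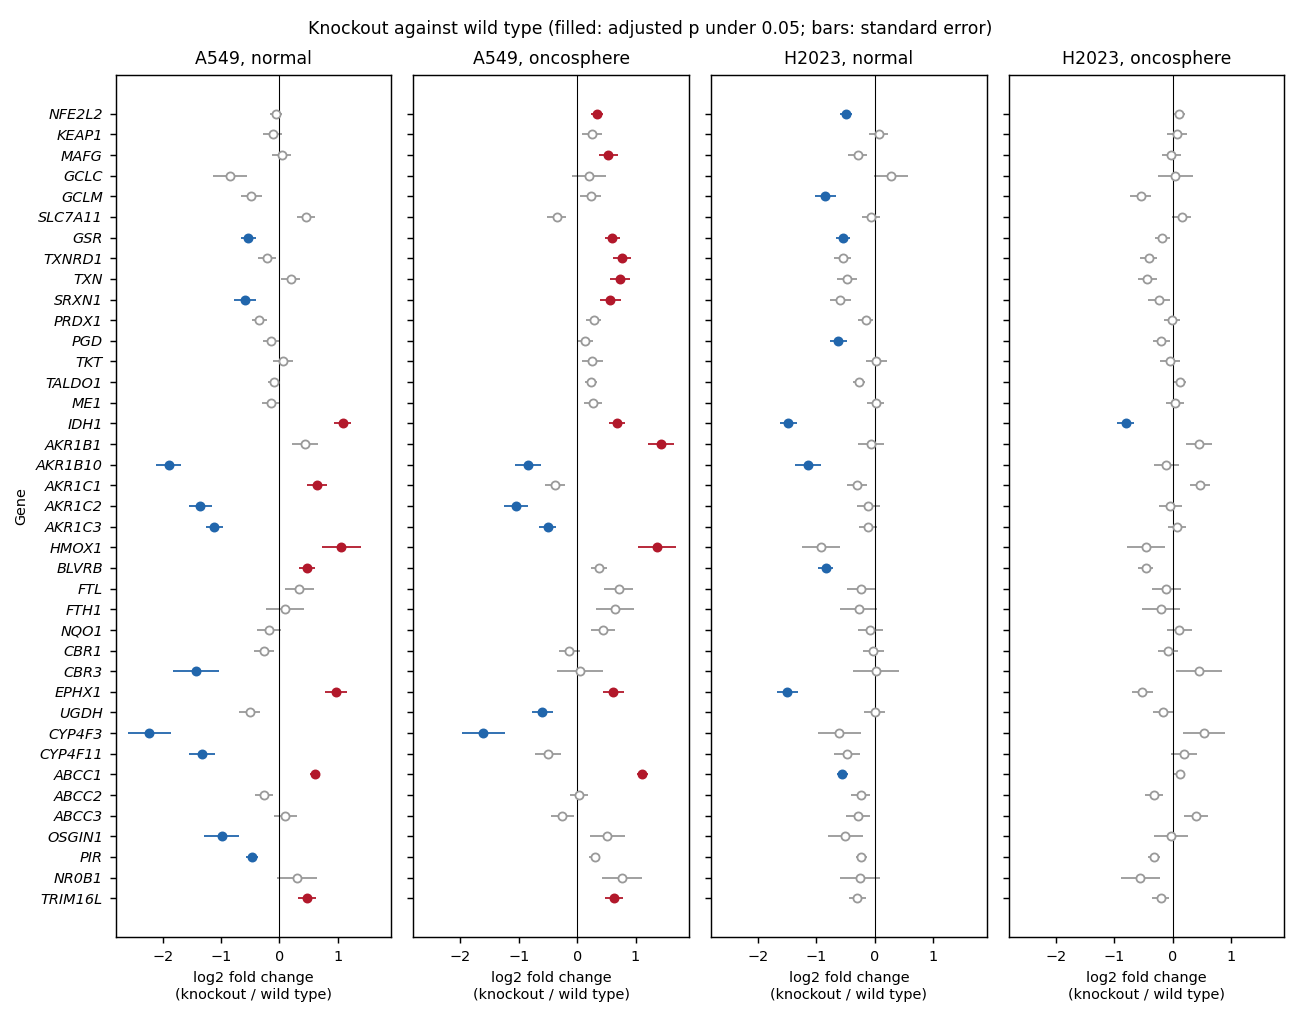
Log2 fold change of libraries labelled knockout over wild type for the 39 genes in each line and culture, with standard errors; filled points had a limma adjusted p under 0.05 (red higher, blue lower). AKR1B10 and AKR1C2 lie left of 0 in both A549 panels, IDH1 and EPHX1 lie right of 0 in A549 and left in H2023, and the H2023 oncosphere panel has 1 filled point.

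In H2023 normal culture the called members were all lower under the knockout label. IDH1 and EPHX1, which were higher in A549, led the list, and NFE2L2 itself was among them. The count was 9, with none higher, against 3% of all genes (1.03% higher, 1.97% lower). The members' median was -0.28 beside 0.01 over all genes, and 34 of 39 had a negative value. These calls rest on the spread pooled over all 8 groups: in a fit of the 4 libraries alone no member was called, and 2 to 9 were called when 1 library was left out.

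IDH1 was at 217.3 and 203.0 TPM in wild type and 76.9 and 72.2 TPM under the knockout label, a log2 difference of -1.48 ± 0.14 (limma adjusted p = 0.000375). EPHX1 was at 313.4 and 382.9 against 132.5 and 112.4 TPM (-1.50 ± 0.18, limma adjusted p = 0.00122). Both were called in each of the 16 fits that left out a library, the only 2 of the 9 that were. AKR1B10 went from 2299 and 3032 to 1108 and 1287 TPM (-1.14). GCLM went from 148.5 and 162.5 to 86.9 and 85.0 TPM (-0.85), BLVRB from 429.1 and 515.3 to 267.3 and 256.2 TPM (-0.84), and PGD, of the pentose phosphate pathway, from 1793 and 1722 to 1227 and 1060 TPM (-0.62). ABCC1 and GSR gave -0.56 and -0.55. NFE2L2 went from 110.7 and 117.9 to 80.4 and 81.4 TPM (-0.49 ± 0.10, limma adjusted p = 0.0214). In each of these genes the 2 groups did not overlap, which is no separate support, since the calls rest on the same libraries.

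TXNRD1 (912.0 and 973.4 against 662.7 and 623.2 TPM; -0.55, limma adjusted p = 0.0721), SRXN1 (-0.59) and HMOX1 (76.4 and 129.8 against 51.4 and 52.9 TPM; -0.92, limma adjusted p = 0.166) missed the threshold. KEAP1, MAFG, GCLC, SLC7A11 and NQO1 were not called (0.06, -0.29, 0.28, -0.07 and -0.08). The AKR1C sum stayed between 10717 and 12369 TPM over both groups of normal culture. The authors' deposited table called 15 members, all lower, against 10.8% of the genes it tested (3.84% higher, 6.97% lower), and its calls included HMOX1 (-0.99, deposited adjusted p = 0.000249) and TXNRD1 (-0.48, deposited adjusted p = 0.000345).

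In H2023 oncosphere culture 1 member was called, against 5.56% of all genes (3.17% higher, 2.4% lower). An unadjusted limma p under 0.05 was found for 8 members and for 3919 of all 18227 genes, a similar share. IDH1 was at 357.1 and 315.6 TPM in wild type and 182.6 and 201.5 TPM under the knockout label, a log2 difference of -0.80 ± 0.14 (limma adjusted p = 0.0092). That call was lost in the fit of the 4 libraries alone and without either wild-type replicate 1 or knockout replicate 1. NFE2L2, KEAP1, MAFG, NQO1, GCLC, SLC7A11, SRXN1, TXNRD1, GCLM and HMOX1 gave 0.11, 0.08, -0.02, 0.11, 0.05, 0.15, -0.23, -0.41, -0.55 and -0.45, none of them called. NFE2L2 was at 85.7 and 97.7 against 90.6 and 108.1 TPM, with overlapping groups. The authors' deposited table called 3 members, all lower (IDH1 -0.89, GCLM -0.72 and BLVRB -0.54), against 5.07% of the genes it tested (2.22% higher, 2.85% lower).

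Over the 4 comparisons of knockout label with wild type, IDH1 was the 1 member called in all 4, and GSR, AKR1B10, EPHX1 and ABCC1 were called in 3. 14 members were called in none: KEAP1, GCLC, SLC7A11, PRDX1, TKT, TALDO1, ME1, FTL, FTH1, NQO1, CBR1, ABCC2, ABCC3 and NR0B1. Of the members called in both lines, AKR1B10 was lower in each of its 3 called comparisons, while IDH1, EPHX1, ABCC1 and BLVRB rose in A549 and fell in H2023. NFE2L2 rose in A549 oncosphere and fell in H2023 normal culture, and GSR fell in normal culture of both lines and rose in A549 oncosphere culture.

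In H2023 no member was called for an interaction of the knockout label with culture by limma, and the difference of the authors' deposited fold changes called 2. An unadjusted limma p under 0.05 was found for 9 members and for 1270 of all genes. Among all 18227 genes 1 was called (0.00549%). The normal and oncosphere differences in H2023 are thus not shown to differ gene by gene.

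The lines were then compared in their knockout-label differences. In normal culture 9 members differed, 2 with a positive and 7 with a negative value of H2023 minus A549, against 12.1% of all genes (6.61% higher, 5.46% lower). IDH1 had the largest value, -2.57 ± 0.20 (limma adjusted p = 6.11e-05), from a rise in A549 and a fall in H2023. EPHX1 gave -2.47, HMOX1 -1.98, BLVRB -1.31, ABCC1 -1.17, AKR1C1 -0.94 and TRIM16L -0.77. AKR1C2 and AKR1C3, lower under the label in A549 and not called in H2023, gave 1.24 and 1.00. In oncosphere culture 13 members differed, 3 with a positive and 10 with a negative value, against 16.3% of all genes (9.37% higher, 6.9% lower). There the values were -1.82 for HMOX1, -1.49 for IDH1, -1.18 for TXNRD1, -1.16 for TXN, -1.14 for EPHX1, -0.996 for ABCC1, -0.84 each for TRIM16L and BLVRB, -0.78 for GSR and -0.61 for PIR, and 0.85 for AKR1C1, 1.01 for AKR1C2 and 2.15 for CYP4F3. Because each line is represented by 1 clone, a difference between lines cannot be told apart from a difference between those clones. The count in normal culture fell to 5 without either H2023 library labelled knockout, and that in oncosphere culture to 8 without A549 knockout replicate 2.

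**Figure D5:**
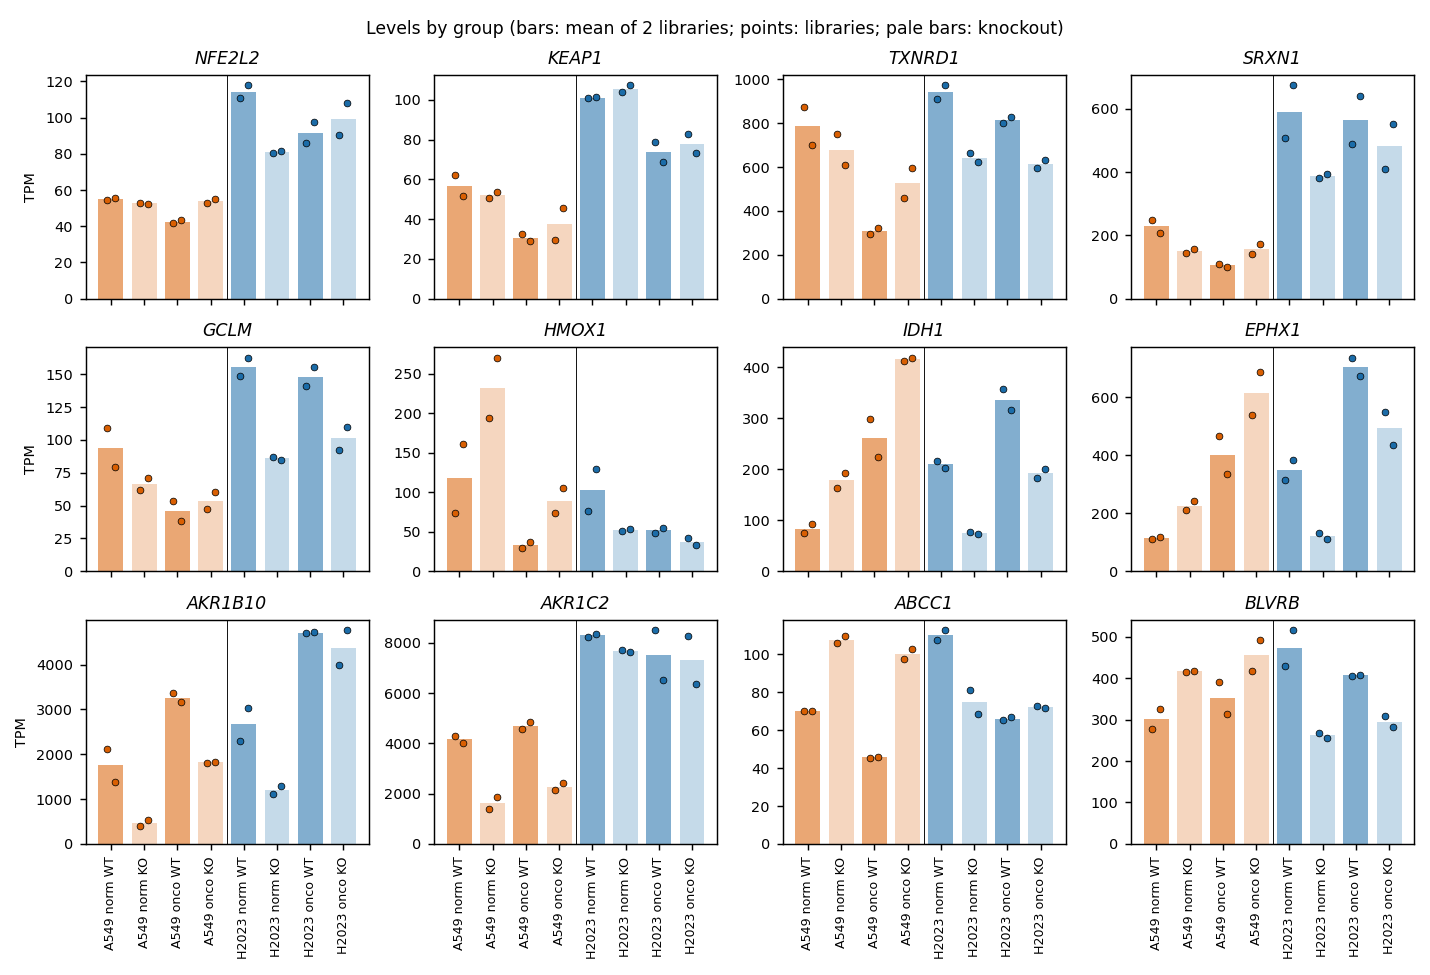
TPM of 12 members by group: bars are means of 2 libraries, points are the libraries, orange is A549, blue is H2023 and pale bars are libraries labelled knockout. IDH1 and EPHX1 are higher under the knockout label in A549 and lower in H2023, ABCC1 is higher in A549 in both cultures, and NFE2L2 is higher in all H2023 than in all A549 libraries.

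Other genes of the pathway were given by a second list of 40, of which 39 were in the tables. The list holds further parts of the KEAP1 ligase, other small MAF proteins, the competing repressor BACH1, and more detoxification enzymes. In A549 normal culture 3 of 39 were higher and 4 lower under the knockout label, where 7.32% and 10.4% of all genes were. In A549 oncosphere culture 6 were higher and 7 lower (10.2% and 10.5% of all genes), in H2023 normal culture 0 and 4 (1.03% and 1.97%), and in H2023 oncosphere culture 2 and 1 (3.17% and 2.4%). Between wild-type lines 15 were higher and 4 lower in H2023 in normal culture (26.6% and 14.9% of all genes), and 14 and 8 in oncosphere culture (23.4% and 24.4%). Between cultures 10 were higher and 10 lower in A549 (19.1% and 22.4%) and 5 and 7 in H2023 wild type (5.17% and 22.2%). With 7 of 39 called in A549 normal culture and 12 of 39 between cultures in H2023, the list lay near the 17.7% and 27.4% of all genes called there.

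GPX2, a selenium-containing glutathione peroxidase, had the largest knockout-label difference of these genes. It was at 269.6 and 301.4 TPM in A549 normal wild type and 5.94 and 6.53 TPM under the knockout label, a log2 difference of -5.31 ± 0.17 (limma adjusted p = 9e-09). In A549 oncosphere culture it was at 2201 and 1745 against 184.8 and 193.2 TPM (-3.37), and in H2023 normal culture at 275.4 and 289.6 against 51.8 and 46.5 TPM (-2.50). In H2023 oncosphere culture the levels were 736.4 and 793.6 against 745.5 and 1117 TPM (0.26, not called). GPX2 was thus low under the label in 3 of the 4 settings, with no overlap there, and was the 1 gene of all 18227 called for the interaction of label and culture in H2023 (2.76 ± 0.23, limma adjusted p = 0.00104).

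UGT1A6, a glucuronosyltransferase of at most 26.4 TPM, was at 0.27 and 0.64 against 4.87 and 3.59 TPM in A549 normal culture (1.85) and 7.41 and 4.84 against 26.4 and 20.9 TPM in A549 oncosphere culture (1.81), and gave -1.31 in H2023 oncosphere culture. CES1, a carboxylesterase, separated the lines: it was at 0.26 and 0.28 TPM in A549 and 1443 and 1939 TPM in H2023 normal wild type, a log2 difference of 10.36. Under the knockout label it was at 395.5 and 460.2 TPM in H2023 normal culture (-1.97), where the drug pump ABCG2 gave -1.74. GSTM3, a glutathione transferase, differed between lines by 4.95 and 4.62. BACH1 was at 22.9 and 26.6 TPM in H2023 oncosphere wild type and 44.2 and 55.7 TPM under the knockout label (0.98 ± 0.18, limma adjusted p = 0.0107). TXNIP, the thioredoxin inhibitor, and MAFK were lower under the label in A549 oncosphere culture (-2.15 and -1.53), with wild-type replicates far apart (15.2 and 3.80 TPM for TXNIP, 64.9 and 140.6 TPM for MAFK).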

How the data were processed

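RNA of 16 libraries was purified with a ReliaPrep kit and made into stranded TruSeq mRNA libraries from 1 µg total RNA, per the labels' protocols. HISAT2, StringTie and GRCh38 are named in the submitters' processing notes, without versions; the annotation is not given in the sources used here. The authors deposited 4 tables of 18361 rows, 1 for each line and culture, with TPM per library (unit read from the values, since the headers name none). 119 repeated identifiers with identical values were kept once, leaving 18227 genes. Per the file headers, the deposited tables also hold the authors' mean normalized count over 4 libraries (a signal), a log2 fold change with its standard error, a test statistic (a score) and p-values, under the column names DESeq2 uses. The statistic's sign was counted in the table of H2023 normal culture and was opposite to that of the fold change in all 18361 rows. Directions therefore come from the fold change.

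One limma fit (version 3.58.1, R 4.3.3, mean-variance trend) on log2(TPM + 1) held all 16 libraries as 8 group means, which share 1 estimate of the spread. It had no expression filter. Tests were two-sided with Benjamini-Hochberg adjustment over all genes, threshold 0.05. Fold changes on this scale understate those of low genes. The fit was tested on simulated data with normal noise of the fitted spread. Of 100 genes changed by log2 1 it recovered 67 to 76 in comparisons of 2 groups and 31 to 41 in interactions. Of 100 changed by log2 2 it recovered 96 to 100 and 87 to 90. False calls numbered 4 to 15 in a comparison. Each simulation changed 200 genes in a single group, with noise independent between libraries. In most comparisons of the real data far more genes were called, and some same-numbered libraries shared a deviation. The recovery therefore describes the simulated setting. TPM gives no depth, and the simulation held no counting error. The members and the second gene list, and the rule for naming genes (the regulators, NQO1, GCLC, GCLM, SLC7A11, TXNRD1, SRXN1 and HMOX1 always, plus up to 8 called members with the largest differences in a comparison, and up to 5 of the second list), were chosen with earlier results of these data known. Positions are GENCODE's for GRCh38, and promoter sequences are RefSeq's. Alternatives were a pseudocount of 0.1, a mean of at least 1 TPM, equal library medians, no mitochondrial genes, robust variance, the replicate block, only the groups compared, the authors' fold changes, and leaving out each library. The labels name no batch.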

Additional observations from a re-analysis of the deposited data

Results flagged for a closer look

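The results below were marked because 2 groups differed in the same contrast by a test of the difference itself, limma interaction terms with adjusted p under 0.05. Values are differences of log2 differences.

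In A549 the difference between libraries labelled knockout and wild type varied with culture (oncosphere minus normal) for OSGIN1 (1.51), SRXN1 (1.16), GSR (1.14), AKR1B10 (1.06), TXNRD1 (0.98), PIR (0.77), ABCC1 (0.51), SLC7A11 (-0.81) and AKR1C1 (-1.01). GSR was called lower in normal and higher in oncosphere culture, and neither call held in every fit that left out a library.

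Between lines (H2023 minus A549) in normal culture it varied for IDH1 (-2.57), EPHX1 (-2.47), HMOX1 (-1.98), BLVRB (-1.31), ABCC1 (-1.17), AKR1C1 (-0.94), TRIM16L (-0.77), AKR1C3 (1.00) and AKR1C2 (1.24). IDH1, EPHX1, BLVRB and ABCC1 rose in A549 and fell in H2023.

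Between lines in oncosphere culture it varied for HMOX1 (-1.82), IDH1 (-1.49), TXNRD1 (-1.18), TXN (-1.16), EPHX1 (-1.14), ABCC1 (-0.996), TRIM16L (-0.84), BLVRB (-0.84), GSR (-0.78), PIR (-0.61), AKR1C1 (0.85), AKR1C2 (1.01) and CYP4F3 (2.15). IDH1 rose in A549 and fell in H2023.

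The response of wild-type cells to culture varied between lines (H2023 minus A549) for OSGIN1 (1.96), CBR3 (1.87), TXNRD1 (1.14), SRXN1 (1.04), GCLM (0.95), SLC7A11 (-0.79), IDH1 (-0.95), CYP4F11 (-1.13), AKR1C1 (-1.16) and ABCC3 (-1.37). These contrasts share libraries, so they are not independent of one another.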

How the results depend on the processing

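No member turned direction with a call under any alternative run. The share of all genes called was taken only for the main fit and for the authors' deposited comparisons. Changes in count under the other fits, here and above, therefore cannot be read as particular to the members. Fitted on only the groups compared, the members called were 11 in A549 normal, 0 in H2023 normal and 0 in H2023 oncosphere culture for the knockout label, 2 for culture in H2023, 5 for the line difference in culture response and 8 for the line difference in knockout label in oncosphere culture. With the authors' deposited fold changes the counts were 15 (H2023 normal), 3 (H2023 oncosphere), 2 (label by culture in H2023) and 19 (label by line, normal culture). Equal medians gave 3 in H2023 oncosphere culture. With the replicate block the counts were 3 in H2023 oncosphere culture and 12 for culture in H2023. Same-numbered libraries correlated in their deviations at 0.075 and 0.027 in normal and 0.131 and 0.461 in oncosphere culture (A549, H2023). The main fit does not take the numbers as pairs. In H2023 oncosphere culture, at 0.461, it thus ignores a deviation that same-numbered libraries shared. With the replicate block 1 member was called higher and 2 lower there. What the same-numbered libraries have in common was not tested.

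Leaving out 1 library gave 8 to 16 (A549 normal), 6 to 18 (A549 oncosphere), 2 to 9 (H2023 normal) and 0 to 2 (H2023 oncosphere) called members for the knockout label, 22 to 27 and 24 to 31 between lines (normal, oncosphere), 19 to 25 and 6 to 10 between cultures (A549, H2023), 2 to 9 and 0 to 0 for label by culture (A549, H2023), 5 to 12 and 8 to 15 for label by line (normal, oncosphere), and 5 to 11 for line by culture. The H2023 normal count was 5 and 2 without wild-type replicates 1 and 2, and 3 and 2 without knockout replicates 1 and 2. The H2023 oncosphere count was 0 without wild-type replicate 1 or knockout replicate 1, and 2 without wild-type replicate 2. The line by culture count was 6 without A549 normal wild-type replicate 1, 5 and 6 without H2023 normal wild-type replicates 1 and 2, and 5 without H2023 oncosphere wild-type replicate 2. The cause of these changes was not tested, beyond the smaller number of libraries. TPM holds no depth, so the counting error of low genes such as CYP4F3 and CBR3 did not enter the main fit. In A549 normal culture the authors' mean normalized counts were 324 for CYP4F3 and 91.8 for CBR3. The standard errors of their deposited log2 fold changes were 0.70 and 0.36.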
